A study of Bos taurus with 16 samples.

Results

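Genes of vascular tone were followed through the bovine corpus luteum, the ovarian gland that secretes progesterone: EDN1, EDNRA, EDNRB, NOS3 and AGTR1. They were found on the array by the gene name, accession or description that the scanner files give for each probe. Each had 1 probe, so they stand for 5 of the 6716 named genes on the array. The glands came from 16 Japanese Black cows, 4 per group. One group was cyclic, sampled 10-12 days into the estrous cycle, and the others were pregnant: in gestation for 20-25 days, for 40-45 days, or for 150-160 days, with insemination as day 1. No treatment or genetic change is named for any group. Total RNA of the gland was labelled with Cy3 and put on 1-colour arrays, 1 animal per array.

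Endothelin 1, made from EDN1, is a vasoconstrictor peptide that is cut from a longer precursor by endothelin converting enzymes. It acts through the type A receptor (EDNRA), which constricts smooth muscle, and the type B receptor (EDNRB), which on endothelium releases nitric oxide. NOS3 is the endothelial nitric oxide synthase, whose product relaxes vessels through soluble guanylate cyclase, and AGTR1 is the type 1 receptor for angiotensin II, a further constrictor. In the cow, endothelin 1, angiotensin II and nitric oxide are known as local mediators of the regression of this gland that follows prostaglandin F2alpha.

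The probes are 60 bases long, and the first 30 bases are shown for 4 of them because every value of a gene below is the signal of that single sequence. They are printed 5′ to 3′ in lower case as the scanner files give them, with no part in capitals.
EDN1: tcaaacagtttattccttatatttaccatg
EDNRB: tatttttgacattagagatgtatttaaatg
NOS3: ataagagactggaccagaagttaggagacc
AGTR1: aaggtgttattccagtcccaggtagtcatg
The whole probes hold 35% G and C for EDN1 and AGTR1, 36.7% for EDNRB and 50% for NOS3. The position of each probe within its transcript was not determined here, and levels are compared only within a probe.

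The levels below are processed signals on a log2 scale, set against the 75th percentile of their array, so that 0 is that percentile. That percentile lay between 2020 and 4288 signal units, and 71.9% to 79.6% of probes were well above background per array. The arrays lay on 2 slides with 2 of each group on each. Each group had its own positions on the slide, and pregnant glands were older than cyclic ones, so position and gland age on the one hand and pregnancy on the other cannot be told apart. The luteal markers STAR, CYP11A1 and HSD3B1 were well above background on all 16 arrays. The tissue is a mixture of cells, and fewer cells of a type cannot be told apart from less RNA per cell. With 4 arrays per group, the number of arrays limits the precision of every value.

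None of the members passed the test in any of the 6 comparisons between groups. EDN1 had its lowest mean on days 40-45, and on those days both EDN1 and AGTR1 lay below every array of days 20-25 without passing the test. The same held for 6.26% of all tested probes, called or not. NOS3 had its highest mean on days 150-160. EDNRB stayed at background on each array. Over the 24 tests of the 4 measurable members, the adjusted p of limma lay between 0.236 and 0.98, and 2 had an unadjusted p under 0.05. The share of all 11943 tested probes called at an adjusted p under 0.05 was 0.293% for days 20-25 against cyclic cows, 1.23% for days 40-45 against cyclic and 7.97% for days 150-160 against cyclic. It was 0.0335% for days 40-45 against days 20-25, 0.0419% for days 150-160 against days 40-45 and 1.57% for days 150-160 against days 20-25. A p that misses the threshold does not show that the groups are alike, so the interval of each main difference is given below.

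**Figure D1:**
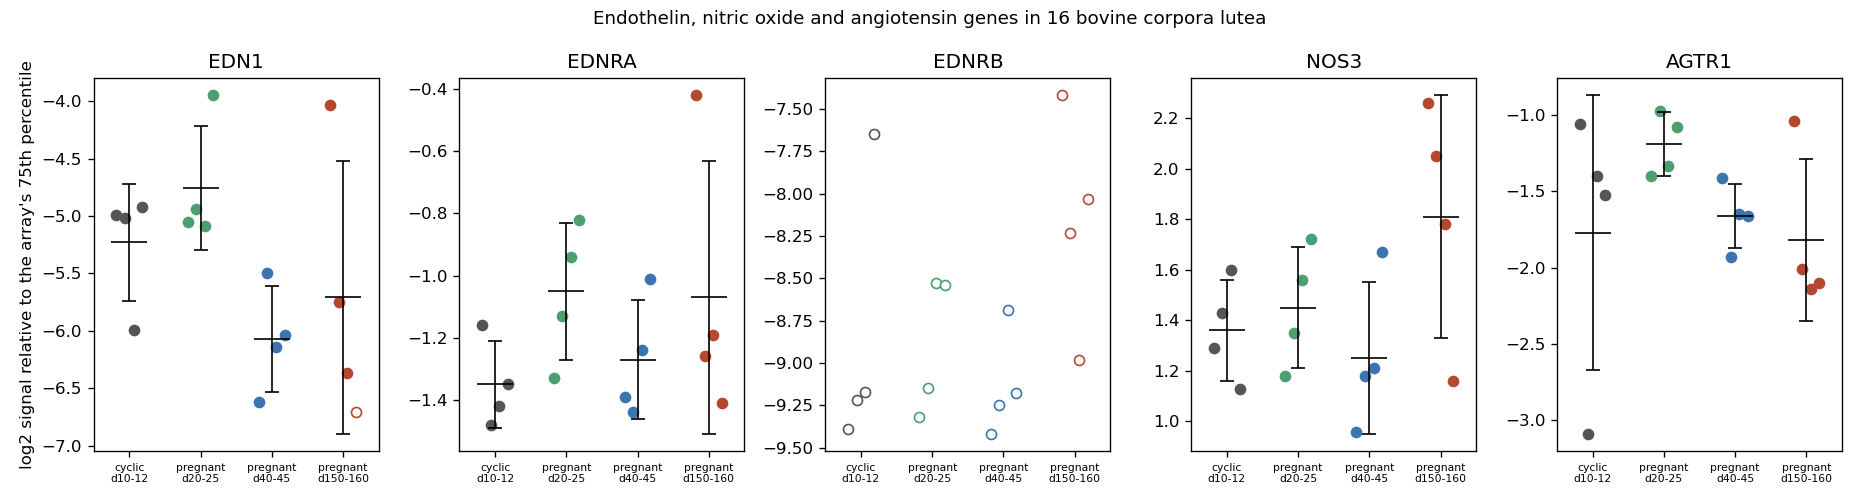
Level of EDN1, EDNRA, EDNRB, NOS3 and AGTR1 on each of 16 arrays, as log2 signal relative to the 75th percentile of the array, by group. Each point is 1 cow, open where the spot was not well above background, bars give the mean ± SD of 4 arrays where at least 1 array was above background, and each panel has its own vertical scale. All EDNRB points are open, and on days 150-160 the same animal, replicate 1, is the top point of its group for every gene.

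EDN1, the ligand, was dim on this array. In cyclic glands its 4 levels were -4.99, -5.02, -5.99 and -4.92. On days 20-25 they were -5.05, -4.94, -5.09 and -3.95, on days 40-45 -6.62, -5.50, -6.14 and -6.04, and on days 150-160 -4.03, -5.75, -6.37 and -6.71. All 4 animals of days 40-45 were below all 4 of days 20-25, while days 150-160 held both a very high animal and the lowest level of the series. The spot was well above background on 15 of 16 arrays, and not on replicate 4 of days 150-160, where the signal was 20.8. Over the arrays, the EDN1 signal was between 0.873 and 4.89 times the lowest signal that counted as well above background.

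The EDN1 means were -5.23 ± 0.51 in cyclic glands, -4.76 ± 0.54 on days 20-25, -6.07 ± 0.46 on days 40-45 and -5.71 ± 1.19 on days 150-160 (log2 levels, SD, n = 4 each). Days 40-45 minus days 20-25 gave a log2 difference of -1.32 (SE 0.48, 95% interval -2.33 to -0.30), with an adjusted p of 0.477 in limma. These groups did not overlap, as was the case, in the same direction, for 6.26% of all tested probes. For days 40-45 against cyclic glands the log2 difference was -0.84 (interval -1.86 to 0.18). The pooled SD within groups was 0.74, larger than in 91.5% of tested probes, whose median was 0.31. Days 20-25, cyclic, days 150-160 and days 40-45 is the order of the means from high to low, and no neighbours in it passed the test.

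One animal weighed heavily on the late values of EDN1. Without replicate 1 of days 150-160, the log2 difference of days 150-160 against days 20-25 was -1.52 with an adjusted p of 0.0453 in limma, against -0.95 and 0.402 with it. None of the other settings tried brought a member past the threshold. Without that animal, days 150-160 against days 40-45 was -0.20 on the log2 scale, against 0.36 with it. The log2 difference of days 150-160 against cyclic glands was 0.12 within slide 1 and -1.08 within slide 2. The difference of days 40-45 against days 20-25 was -1.06 within slide 1 and -1.57 within slide 2, with adjusted p of 0.999 and 0.66 in limma.

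EDNRA, the constrictor receptor of endothelin 1, was well above background on every array. The pooled SD within groups was 0.28, larger than in 42.4% of tested probes, whose median was 0.31. Its levels were -1.16, -1.48, -1.42 and -1.35 in cyclic glands, -1.33, -1.13, -0.94 and -0.82 on days 20-25, -1.39, -1.44, -1.24 and -1.01 on days 40-45, and -0.42, -1.26, -1.19 and -1.41 on days 150-160. All groups overlapped, and the highest value belonged to the same animal of days 150-160 that was high for EDN1. The means were -1.35 ± 0.14 in cyclic glands, -1.05 ± 0.22 on days 20-25, -1.27 ± 0.19 on days 40-45 and -1.07 ± 0.44 on days 150-160 (log2 levels, SD, n = 4 each). The widest gap was days 20-25 minus cyclic, a log2 difference of 0.30 (SE 0.19, interval -0.12 to 0.72), with an adjusted p of 0.492 in limma. The intervals of the 6 comparisons reached no further than -0.64 and 0.72, on the log2 scale. The means of days 20-25 and days 150-160 stood 0.02 apart, and days 40-45 and cyclic glands came lower, with no neighbours in that order past the test.

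EDNRB, the second endothelin receptor, gave no usable level. Its signals were 6.4, 5.2, 3.5 and 13.8 in cyclic glands, 5.2, 6.1, 5.7 and 5.5 on days 20-25, 5.0, 4.9, 6.6 and 3.9 on days 40-45, and 14.9, 8.8, 5.3 and 8.3 on days 150-160. On all 16 arrays these lay under the lowest signal that counted as well above background, which was 17.2 to 34.8 depending on the array. On 10 arrays the deposited value was a substitute for a signal not above its error. No fold can be given between groups that are both below background. When the filter was dropped, the differences between groups were -0.27 to 0.97 on the log2 scale, with adjusted p of 0.279 to 0.981 in limma. These compare spots below background and are not differences in EDNRB.

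NOS3, the endothelial nitric oxide synthase, had signals of 4850.6 to 12233.7 and was well above background throughout. Its log2 levels were 1.29, 1.43, 1.60 and 1.13 in cyclic glands, 1.18, 1.35, 1.56 and 1.72 on days 20-25, 0.96, 1.18, 1.21 and 1.67 on days 40-45, and 2.26, 2.05, 1.78 and 1.16 on days 150-160. In days 150-160, 3 of 4 animals were above all animals of the other groups, and replicate 4 of that group lay among the lowest. The means were 1.36 ± 0.20 in cyclic glands, 1.45 ± 0.24 on days 20-25, 1.25 ± 0.30 on days 40-45 and 1.81 ± 0.48 on days 150-160 (log2 levels, SD, n = 4 each). Days 150-160 minus days 40-45 was 0.56 on the log2 scale (SE 0.22, interval 0.09 to 1.03), with an unadjusted p of 0.0236 and an adjusted p of 0.433 in limma. Within slide 1 this difference was 1.09 and within slide 2 it was 0.03. Days 150-160 minus cyclic was 0.45 (SE 0.22, interval -0.02 to 0.92, adjusted p 0.236 in limma), with 0.79 within slide 1 and 0.11 within slide 2. In the order days 150-160, days 20-25, cyclic and days 40-45, no neighbours passed the test.

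AGTR1, the angiotensin II type 1 receptor, had levels of -1.06, -3.09, -1.40 and -1.52 in cyclic glands, -1.40, -0.97, -1.33 and -1.08 on days 20-25, -1.41, -1.93, -1.65 and -1.66 on days 40-45, and -1.04, -2.01, -2.14 and -2.10 on days 150-160. Cyclic replicate 2 was the lowest array of the series. All animals of days 40-45 were below all of days 20-25, as was the case for 6.26% of all tested probes. The gap was narrow, with the nearest animals at -1.41 and -1.40. On days 150-160, 3 of 4 animals were lower still. The means were -1.77 ± 0.90 in cyclic glands, -1.19 ± 0.21 on days 20-25, -1.66 ± 0.21 on days 40-45 and -1.82 ± 0.53 on days 150-160 (log2 levels, SD, n = 4 each). Days 40-45 minus days 20-25 was -0.47 on the log2 scale (SE 0.36, interval -1.23 to 0.29, adjusted p 0.718 in limma). Days 150-160 minus days 20-25 was -0.63 (interval -1.39 to 0.13, adjusted p 0.464 in limma), with -0.34 within slide 1 and -0.92 within slide 2. From high to low the order was days 20-25, days 40-45, cyclic and days 150-160, again with no neighbours past the test.

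The cyclic value of AGTR1 rested on that single low animal. Without cyclic replicate 2, the log2 difference against cyclic glands was 0.14 for days 20-25, -0.33 for days 40-45 and -0.49 for days 150-160. With it, the same differences were 0.58, 0.11 and -0.05. The lowest adjusted p among the 3 without it was 0.258 in limma.

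**Figure D2:**
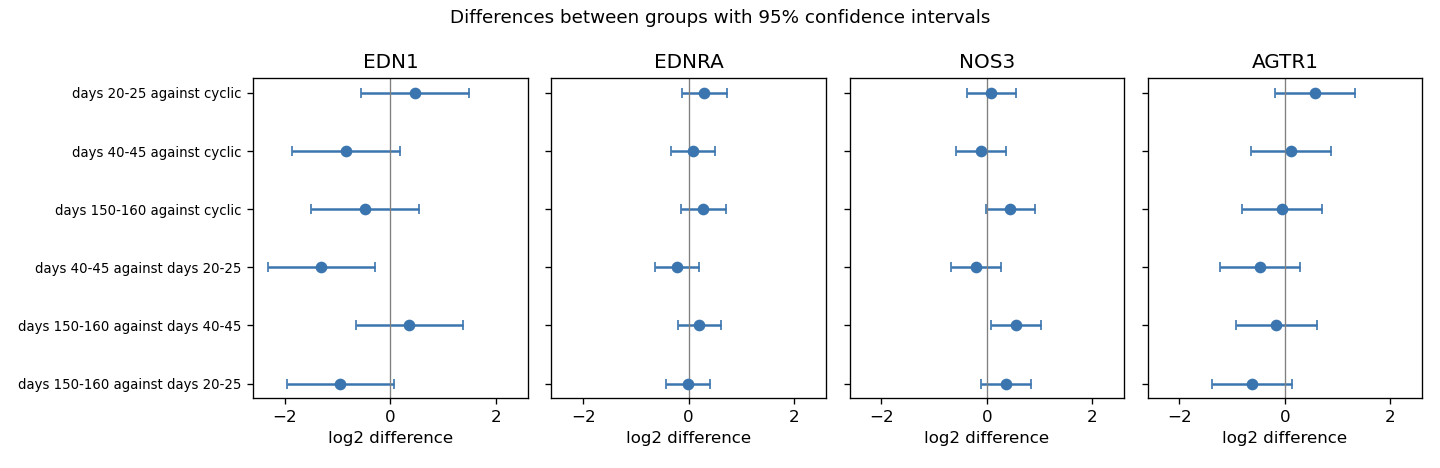
Log2 difference between groups (first-named minus second-named) for the 4 members that could be tested, with 95% confidence intervals from limma, for 6 comparisons. The interval excludes 0 for EDN1 on days 40-45 against days 20-25 and for NOS3 on days 150-160 against days 40-45, before adjustment over all probes.

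The F test over the 4 groups passed for none of the members, with adjusted p of 0.292 for EDN1, 0.361 for NOS3, 0.578 for AGTR1 and 0.614 for EDNRA in limma. It passed for 3.86% of all tested probes. Between slides, 6.22% of tested probes differed at an adjusted p under 0.05, and none of the members did, with adjusted p of 0.534 to 0.999 and unadjusted p of 0.236 to 0.997 in limma. The comparisons share groups, so their values for the members are not separate lines of evidence. On days 20-25 against cyclic, the 4 log2 differences were 0.47 for EDN1, 0.30 for EDNRA, 0.09 for NOS3 and 0.58 for AGTR1, with a median of 0.39 beside 0.05 over all tested probes. On days 40-45 against days 20-25, they were -1.32, -0.22, -0.20 and -0.47 in the same order, with a median of -0.34 beside -0.05 over all tested probes.

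Replicate 1 of days 150-160 was the highest of its group for all 4 tested members. On that array the mean deviation of 15 endothelial markers from their average over the arrays was 0.79, and that of 8 smooth muscle and pericyte markers was 1.29, on the log2 scale. In days 150-160 the endothelial deviations were 0.79, 0.19, 0.07 and -0.31 for replicates 1 to 4, where NOS3 stood at 2.26, 2.05, 1.78 and 1.16. The smooth muscle and pericyte deviations of the same arrays were 1.29, 0.50, -0.23 and 0.41. The range of the endothelial deviation was -0.40 to -0.19 in cyclic glands, 0.07 to 0.35 on days 20-25, -0.16 to 0.00 on days 40-45 and -0.31 to 0.79 on days 150-160. Cyclic glands were thus lower in it than days 40-45, while their mean NOS3 level was higher (1.36 against 1.25). The range for smooth muscle and pericytes was -0.36 to 0.30 in cyclic glands, -0.51 to 0.28 on days 20-25, -0.41 to -0.03 on days 40-45 and -0.23 to 1.29 on days 150-160. The part of these cell types in the values of the members was not tested.

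On days 150-160 against cyclic, 3 of 15 endothelial markers rose, with log2 differences of 1.13 for ENG, 0.85 for TEK and 1.42 for FLT1, in a comparison where 4.65% of all tested probes were called higher. The median log2 difference of that list was 0.49, beside 0.03 over all tested probes. In it 13 of 15 differences were positive, beside 52.7% of all tested probes, while VWF gave -0.51 and TIE1 0.00, neither called. Of 8 smooth muscle and pericyte markers 0 passed the test in limma, 2 had an unadjusted p under 0.05, and the median was 0.46. Of 6 fibroblast markers, COL1A1, COL1A2 and COL3A1 fell, with log2 differences of -1.63, -2.72 and -1.13, where 3.32% of all tested probes were called lower. Of 8 leukocyte markers CD68 and MRC1 fell, with log2 differences of -1.57 and -1.03, but 4 of the 8 had positive differences. The leukocyte median was -0.34. Of 7 luteal markers PTGFR, the receptor of prostaglandin F2alpha, rose by 0.85. Of the red blood cell list, HBA and HBB were too dim to test, and ALAS2 gave -0.15. The defining leukocyte marker PTPRC was well above background on 12 of 16 arrays, and HBB on 0.

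Over the 16 arrays, the level of EDNRA correlated with that of NOS3, and with that of EDN1 by Pearson's r but not by rank. For EDNRA and NOS3 Pearson's r was 0.69 and Spearman's rho 0.56, with permutation p of 0.00376 and 0.0247, adjusted over the 6 pairs to 0.0226 and 0.0494. Without the 2 arrays farthest from the median of EDNRA this r was 0.39, so much of it rests on those arrays, and within slides 1 and 2 it was 0.73 and 0.59. For EDN1 and EDNRA r was 0.61 and rho 0.41, with permutation p of 0.0109 and 0.119, adjusted to 0.0327 and 0.178. Without the 2 arrays farthest from the median of EDN1 it was 0.51, and within slides it was 0.70 and 0.64. All levels of an array share its scaling and its mixture of cells. By rank, rho was 0.61 for both EDNRA with AGTR1 and EDN1 with AGTR1, each with an adjusted permutation p of 0.0417, while their r had adjusted p of 0.0662 and 0.191. The r of NOS3 with AGTR1 was 0.06 and that of EDN1 with NOS3 was 0.35.

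**Figure D3:**
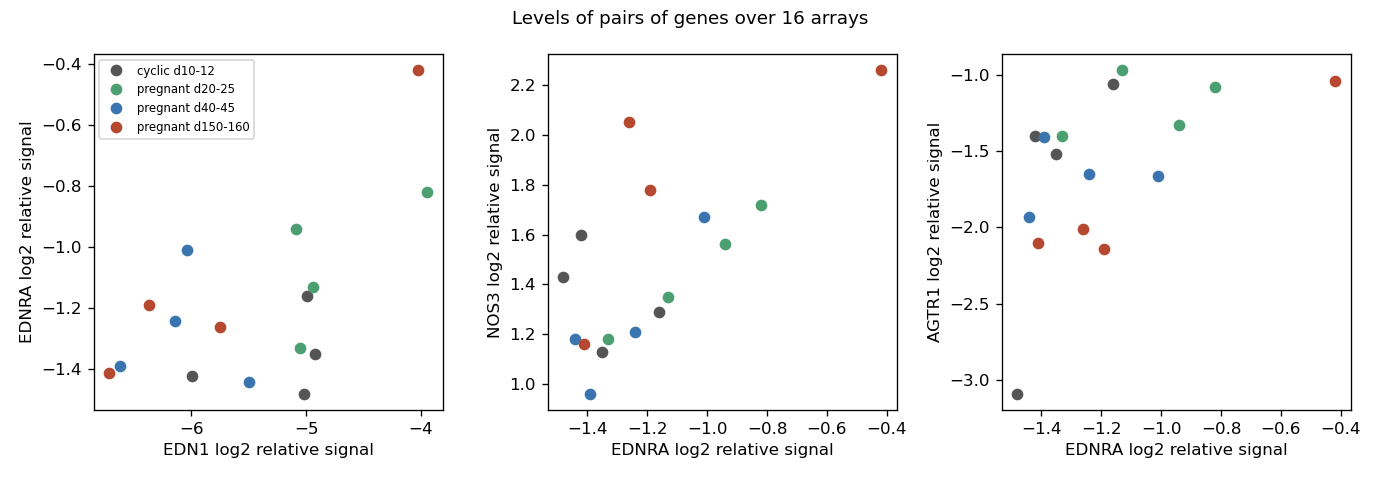
Levels of EDN1 against EDNRA, EDNRA against NOS3 and EDNRA against AGTR1, each as log2 signal relative to the 75th percentile of the array, 1 point per array, coloured by group. The r values are 0.61, 0.69 and 0.56, and in each panel an animal of days 150-160 has the highest EDNRA level of -0.42.

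Among 5676 named genes, those most like each member over the 16 arrays were ranked by Pearson's r of log2 levels, as a description. For EDN1 they were ITGB2 (0.88), LY9 (0.87) and S1PR2 (0.84). For EDNRA they were FNBP1 (0.92), HNRNPA2B1 (0.89) and B3GNT3 (0.87). NOS3 was most like TSKS (0.88), MTMR11 (0.85) and HAS1 (0.82), and AGTR1 was most like SEPTIN4 (0.90), MEF2C (0.86) and STRADA (0.82).

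Around the members, 4 genes of the listed vasoactive pathways passed the test, all of them called higher on days 150-160 against cyclic glands. In that comparison 7.97% of all tested probes were called, and 4.65% were called higher. Tested were 3 genes of the endothelin list, 19 of nitric oxide, 9 of renin-angiotensin, 11 other vasoactive and 12 G protein genes. The largest difference was in ECE2, an endothelin converting enzyme that can cut the precursor of endothelin 1. Its levels were -0.79, -0.63, 0.76 and 0.15 in cyclic glands, -0.03, -0.79, 0.37 and -1.29 on days 20-25, 1.05, 0.65, 1.33 and 1.41 on days 40-45, and 1.66, 2.25, 1.91 and 1.90 on days 150-160. Every animal of days 150-160 was above every animal of the other groups, which held for 6.63% of all tested probes against cyclic, 3.52% against days 20-25 and 4.1% against days 40-45. ECE2 rose on days 150-160 by 2.06 on the log2 scale against cyclic glands (SE 0.37, interval 1.27 to 2.84, adjusted p 0.0041 in limma) and by 2.36 against days 20-25 (adjusted p 0.00479), a comparison in which 0.645% of all tested probes were called higher. Both calls were kept when any 1 array was left out. Against cyclic glands the difference was 2.66 within slide 1 and 1.45 within slide 2, the second with an adjusted p of 0.357 in limma. Against days 20-25 it was 2.36 and 2.37 within slides, with adjusted p of 0.101 and 0.279.

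The other 2 measurable genes of the endothelin list did not pass the test. ECE1, the converting enzyme of the same family, gave 0.22 on days 150-160 against cyclic (interval -0.13 to 0.58), and ECEL1, a related peptidase, gave -0.39 on days 40-45 against cyclic (interval -1.01 to 0.22). EDN2, a second ligand, was too dim to test. ECE2 was thus 1 of 3 tested genes called on days 150-160 against cyclic, where 4.65% of all tested probes were called higher. In the nitric oxide list, with its cofactor and arginine enzymes, guanylate cyclase and phosphodiesterases, 0 of 19 tested genes passed in any of the 6 comparisons by limma, and 11 of the 114 tests had an unadjusted p under 0.05. Against cyclic glands, the genes of that list with the widest differences gave 0.68 for PRKG1, the cGMP-dependent kinase, and 0.66 for PDE1A on days 150-160, and -0.52 for GUCY1B1, a guanylate cyclase subunit, on days 40-45. Their adjusted p were 0.119, 0.134 and 0.299 in limma. Their intervals were 0.13 to 1.23, 0.11 to 1.21 and -1.0 to -0.03 before adjustment.

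**Figure D4:**
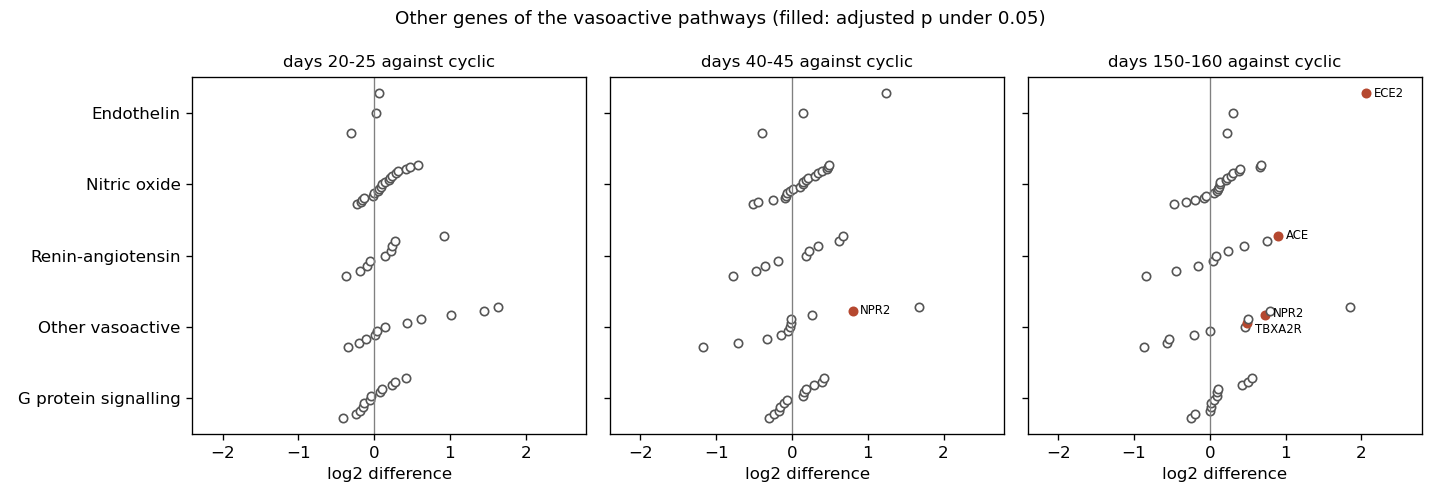
Log2 differences of tested genes of 5 vasoactive pathway lists for each pregnancy stage minus cyclic glands, 1 point per gene, filled and named where the adjusted p was under 0.05. No gene is filled on days 20-25, NPR2 is filled on days 40-45, and ECE2, ACE, NPR2 and TBXA2R are filled on days 150-160, all to the right of 0.

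In the renin-angiotensin list, 1 of 9 tested genes rose on days 150-160 against cyclic, beside 4.65% of all tested probes. It was ACE, the enzyme that makes angiotensin II, the ligand of AGTR1. ACE was dim, with signals of 65.8 to 164.7, but well above background on every array. Its levels were -5.47, -4.83, -4.74 and -5.39 in cyclic glands, -5.11, -4.72, -4.90 and -4.57 on days 20-25, -4.41, -4.31, -4.44 and -4.58 on days 40-45, and -3.95, -4.29, -4.59 and -4.01 on days 150-160. All animals of days 40-45 and of days 150-160 were above all cyclic ones, the first as for 5.12% and the second as for 6.63% of all tested probes. The log2 difference of days 150-160 minus cyclic was 0.90 (SE 0.19, interval 0.49 to 1.31, adjusted p 0.0123 in limma), and it was 1.03 within slide 1 and 0.77 within slide 2. The call was kept without any 1 array and lost when only these 2 groups were fitted (adjusted p 0.0829) or within slides 1 and 2 (0.105 and 0.412 in limma).

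The aminopeptidases ENPEP and ANPEP gave 0.92 on days 20-25 (interval -0.03 to 1.86) and -0.84 on days 150-160 (interval -1.53 to -0.15), each against cyclic, with adjusted p of 0.369 and 0.127 in limma. AGTR2, the second angiotensin II receptor, was well above background on 0 of 16 arrays, with signals of 3.5 to 7.1.

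Of 11 other vasoactive genes tested, NPR2 and TBXA2R rose on days 150-160 against cyclic, and NPR2 alone on days 40-45. On days 150-160, 4.65% of all tested probes were called higher. NPR2 encodes the receptor of C-type natriuretic peptide. Its levels were -2.11, -2.38, -1.97 and -2.20 in cyclic glands, -1.80, -1.64, -1.47 and -1.24 on days 20-25, -1.44, -1.60, -1.21 and -1.21 on days 40-45, and -1.56, -1.50, -1.11 and -1.57 on days 150-160. Every pregnant animal was above every cyclic one. For each stage alone, this held in 5.75% of all tested probes on days 20-25, 5.12% on days 40-45 and 6.63% on days 150-160. The share for all stages at once was not counted. NPR2 rose by 0.80 on days 40-45 (adjusted p 0.0223) and by 0.73 on days 150-160 (SE 0.16, adjusted p 0.0123), both against cyclic in limma. On days 40-45, 0.536% of all tested probes were called higher. Its call on days 40-45 was lost when any of 5 arrays was left out, namely cyclic replicates 2 and 4 and days 40-45 replicates 1, 3 and 4, with adjusted p of up to 0.0698. With only the 2 groups fitted, both NPR2 calls were lost (adjusted p 0.0615 on days 40-45 and 0.0617 on days 150-160 in limma). Both were also lost within each slide, with log2 differences of 0.73 and 0.87 on days 40-45 and of 0.72 and 0.74 on days 150-160.

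TBXA2R, the thromboxane A2 receptor, had levels of -5.44, -4.95, -5.05 and -5.16 in cyclic glands, -4.76, -4.67, -4.70 and -4.70 on days 20-25, -4.76, -4.92, -4.90 and -4.96 on days 40-45, and -4.39, -4.68, -4.89 and -4.66 on days 150-160. This probe too was dim, with signals of 61.2 to 136.9, but well above background on every array. The groups of days 150-160 and cyclic cows did not overlap, as was the case, in the same direction, for 6.63% of all tested probes. Days 20-25 also lay above all cyclic animals, as for 5.75% of all tested probes, without being called (adjusted p 0.146 in limma). The log2 difference of days 150-160 minus cyclic was 0.49 (SE 0.13, interval 0.22 to 0.77, adjusted p 0.0322 in limma). The call was lost without cyclic replicates 1 or 4, or days 150-160 replicates 1, 2 or 4, with adjusted p of up to 0.0822, and under the normexp background correction (0.0964). It was also lost with only the 2 groups fitted (adjusted p 0.177 in limma) and within slides 1 and 2 (0.156 and 0.541).

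**Figure D5:**
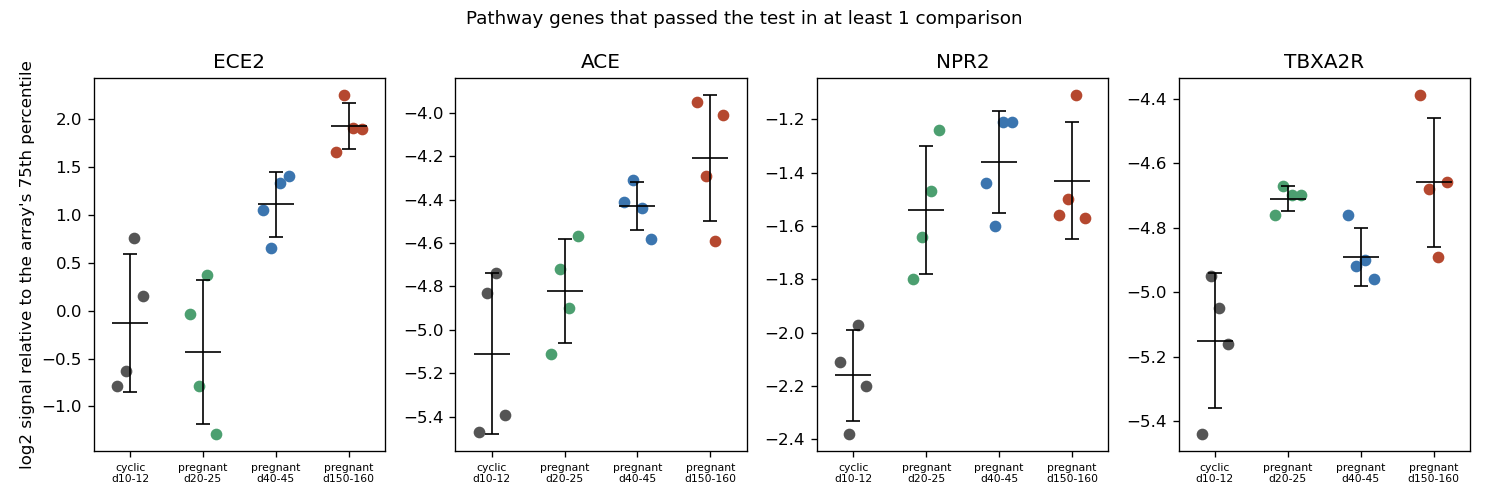
Levels of ECE2, ACE, NPR2 and TBXA2R on each of 16 arrays, as log2 signal relative to the 75th percentile of the array, by group, with the mean ± SD of 4 arrays. The days 150-160 points lie above all cyclic points in each panel, and for ECE2 also above all others.

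Of the uncalled genes of that list, NPR3, the clearance receptor of natriuretic peptides, gave 1.85 on days 150-160 against cyclic. The interval was 0.22 to 3.47 and the adjusted p 0.155 in limma. Only 2 of 4 cyclic arrays were well above background, and the lowest cyclic level was -9.39, so this size is not well measured. NPR3 entered the test only through the pregnant groups, so being brighter there is no separate result. VIPR1, a receptor of vasoactive intestinal peptide, was well above background on 4 of 4 arrays of days 20-25 and on 0 of 4 cyclic arrays. It entered the test only through days 20-25, so being brighter there is no separate result. The means were -6.49 and -7.94, not called as different (interval 0.14 to 2.77, adjusted p 0.305 in limma). For these arrays the ratio of the means was bounded at 1.35-fold, without allowance for sampling error. The same bound against days 150-160 was 0.97-fold. BDKRB2, a bradykinin receptor, was above background on 0 of 4 arrays of days 40-45 and on 3 of 4 cyclic arrays. The means were -7.65 and -6.48, not called as different (adjusted p 0.13 in limma). No bound is given for it, since not every cyclic array was above background. It entered the test only through cyclic glands and days 20-25, where it was brighter. Bounds set the mean of the brighter group against the lowest signal well above background of each dim array, or the own signal of the probe where that was higher. In the G protein list, 0 of 12 tested genes passed in any comparison by limma, and 5 of the 72 tests had an unadjusted p under 0.05. The widest differences there, on days 150-160 against cyclic, were 0.56 for RGS5, which dampens G protein signals, 0.51 for the receptor kinase GRK5 and 0.42 for ITPR2, a calcium release channel. Their adjusted p were 0.326, 0.0977 and 0.15 in limma.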

How the data were processed

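The deposited values per spot are intensities (processed signals, linear scale), read with Agilent Feature Extraction 9.5 per the submitters' processing notes. Per the file headers, background and spatial trend were subtracted, a surrogate replaced signals not above their error, and arrays were not scaled. The deposited value table is on a log2 scale. Its columns equal log2 processed signal minus a constant per array within 0.0046, with medians of -3.18 to -2.98, and it served as an alternative.

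Of 15208 probes left after 536 control spots, 7047 got a symbol, by accession (2496), gene ID (1980), symbol (1581), a human gene in the description (985) or by hand from the description (5: AGTR2, AGT, PRCP, ARG1 and TAGLN). RefSeq's table of ARS-UCD2.0 gave names only. On all arrays together, 36 spots with outlier flags were set to missing, none of them of the 5 genes. A probe was tested when well above background on at least 3 of the 4 arrays of a group, which held for 11943 probes, 5959 with a symbol. A gene with several probes was represented by the one with the highest mean.

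Values were scaled to the 75th percentile and fitted with limma 3.58.1 in R 4.3.3 (lmFit and eBayes on all 16 arrays with group alone, residual degrees of freedom 12 and prior 2.77), with Benjamini-Hochberg adjustment over all tested probes and calls at an adjusted p under 0.05. The script was tested on simulated data. Correlations between members had 100000 two-sided permutations. Intervals are 95% intervals before adjustment. A marker score averages, over the genes of a list, how far each lay from its own mean over arrays.

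The members and lists were chosen with earlier results of these data known. The lists were endothelin, nitric oxide, renin-angiotensin, other vasoactive and G protein genes, with markers of luteal, endothelial, smooth muscle, leukocyte, red blood and fibroblast cells. Named genes were all members, every called gene of the vasoactive lists, up to 3 uncalled genes per list with the largest difference against cyclic cows, and the 3 genes most like each tested member. One gene named by this rule and 1 probe sequence are not reported here. Called markers were named beyond that rule after their values were seen. Alternatives were normexp (offset 50), quantile scaling, another percentile, filters, the slide, the replicate number, 2-group fits and leaving out each array.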

Additional observations from a re-analysis of the deposited data

Results flagged for a closer look

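In 36 groups of 4 arrays, over the 5 genes and the 4 called pathway genes, 5 groups held an array far from the other 3, where chance alone gives about 1 in 20 groups. EDN1 stood at -5.99 in cyclic replicate 3, with the other 3 between -5.02 and -4.92. EDN1 also stood at -3.95 in replicate 4 of days 20-25, with the others between -5.09 and -4.94. EDNRB stood at -7.65 in cyclic replicate 4, with the others between -9.39 and -9.17, all below background. AGTR1 stood at -1.04 in replicate 1 of days 150-160, with the others between -2.14 and -2.01. NPR2 stood at -1.11 in replicate 3 of days 150-160, with the others between -1.57 and -1.50. All are log2 levels.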

How the results depend on the processing

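Of 666 values of the 4 tested members under 28 alternatives, 637 kept their direction and side of the threshold, 28 had the other sign and 1 was newly called, EDN1 on days 150-160 against days 20-25 without replicate 1 of days 150-160 (-1.52). Apart from that call, the lowest adjusted p was 0.0559 in limma. EDN1 had no value where only probes well above background on all arrays were kept. The cause of the changes below was not tested, except that fits within a slide or with only the 2 groups hold fewer arrays. Signal over background limits EDN1 and EDNRB.

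Within slide 1, signs turned for EDN1 on days 150-160 against cyclic (0.12) and against days 20-25 (0.11), EDNRA on days 40-45 against cyclic (-0.10) and days 150-160 against days 20-25 (0.39), NOS3 on days 20-25 against cyclic (-0.10), and AGTR1 on days 150-160 against cyclic (0.55) and against days 40-45 (0.15). Within slide 2 they turned for EDN1 (-0.45) and EDNRA (-0.18) on days 150-160 against days 40-45, NOS3 on days 40-45 against cyclic (0.08) and days 150-160 against days 20-25 (-0.16), and AGTR1 on days 40-45 against cyclic (-0.19). Leaving out 1 array, the log2 differences were -0.20 to 0.69 for EDN1 and -0.02 to 0.32 for EDNRA on days 150-160 against days 40-45, -0.01 to 0.14 for EDNRA on days 40-45 against cyclic, -0.24 to 0.10 for EDNRA and -1.52 to -0.62 for EDN1 on days 150-160 against days 20-25, and 0.00 to 0.18 for NOS3 on days 20-25 against cyclic. For AGTR1 they were -0.33 to 0.34 on days 40-45 and -0.49 to 0.18 on days 150-160, both against cyclic.

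Counts of called probes moved more. For days 20-25 against cyclic, 35 probes became 78 with slide as a block, 5 and 6 within slides 1 and 2, 2 with only the 2 groups and 4 to 85 without 1 array. For days 40-45 against cyclic, 147 became 94 under normexp, 90 with no filter, 51 and 12 within slides, 73 with only the 2 groups and 63 to 226 without 1 array. For days 150-160 against cyclic, 952 became 254 and 21 within slides, 315 with only the 2 groups and 583 to 1104 without 1 array. For days 40-45 against days 20-25, 4 became 8 with no filter, 1 with only probes above background on all arrays, 7 with slide as a block, 0 within each slide, 7 with only the 2 groups and 0 to 8 without 1 array. For days 150-160 against days 40-45, 5 became 8 with the percentile over detected probes, 9 in the authors' value table, 17 with no filter, 2 with only probes above background on all arrays, 9 with dim values raised to the floor, 13 with slide as a block, 1 and 0 within slides, 1 with only the 2 groups and 2 to 19 without 1 array. For days 150-160 against days 20-25, 188 became 4 and 7 within slides, 118 with only the 2 groups and 88 to 243 without 1 array. The F test's 461 became 42 and 12 within slides and 267 to 504 without 1 array.

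Same-numbered arrays were treated as unpaired, and whether they were paired was not settled. Their deviations correlated at 0.00 to 0.29, and in no comparison did all 4 pairs exceed 0.1. Yet 11 of 16 arrays were most like another array of their own number, and same-numbered arrays also shared a slide. With the replicate block, EDN1 on days 40-45 against days 20-25 stayed at -1.32 (adjusted p 0.437 in limma), no member was called, and the counts became 0 for days 40-45 against days 20-25 and 14 for days 150-160 against days 40-45.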
